A study of Mus musculus with 6 samples.

Results

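The 40 genes described here encode the contractile, calcium-handling and energy proteins of skeletal muscle. They were picked by name, with earlier results of these data known, from a table of 22558 genes measured in whole mouse eyes. They cover fast fibre proteins (11 genes), slow fibre proteins (7), developmental and extraocular myosin heavy chains (3), filament and Z-disc proteins shared between fibre types (10), calcium handling (5) and energy or oxygen supply (4). RNA came from eyes of C57BL/6 mice at postnatal day 21, as 3 libraries from BC027072 -/- animals (knockout) and 3 from wild type animals. The labels name the tissue only as eye and do not mention muscle, sex or whether each library is a separate animal, so p-values measure the spread between these libraries. The question asked of them is whether the muscle RNA carried along with the eye differs between libraries and between genotypes.

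The extraocular muscles and, in mice, the retractor bulbi attach to the outside of the eyeball and come away with it in varying amounts when an eye is removed. A muscle fibre shortens when calcium, released from the sarcoplasmic reticulum through the ryanodine receptor, binds troponin and lets myosin heads pull on actin filaments anchored at the Z-disc. Fast and slow fibres use different genes for the same parts of this machine. Extraocular muscle is known for keeping embryonic and perinatal myosins beside the adult fast ones, and for a myosin heavy chain of its own, encoded by Myh13.

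All 40 genes were detected in all 6 libraries, and all passed the filter on low counts. Levels are given as CPM, fragment counts scaled to the TMM-adjusted library size, and range over group means from 0.502 CPM for Ankrd2 to 1894 CPM for Ttn in knockout eyes. Myh13 was present at 70.7, 54.3 and 87.0 CPM in knockout eyes and at 40.9, 62.6 and 60.9 CPM in wild type eyes, which fits the name given to the genes. Of 10 heart-type genes 4 passed the filter on low counts, and the list summed to 120 to 168 CPM in knockout eyes and 95.9 to 146 CPM in wild type eyes. Most of that was Actc1, cardiac actin, which developing skeletal muscle also makes, with 630 to 1509 fragments in knockout libraries and 1117 to 2183 in wild type libraries. Myh6, the cardiac alpha heavy chain, had 1 to 5 fragments in knockout libraries and 0 to 10 in wild type libraries, and Nppa, the atrial natriuretic peptide, had 0 to 4 in knockout libraries and 3 to 9 in wild type libraries. BC027072 itself was at 0.283 to 0.351 CPM in the knockout libraries and at 259 to 276 CPM in the wild type libraries, so the levels fit the genotype labels.

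Libraries differed in depth and sex, and rod photoreceptor RNA differed by genotype. Totals were 5695530 to 10343820 fragments in knockout libraries and 8441944 to 21815950 in wild type libraries. Knockout libraries 1 and 3 had 11 and 18 fragments of Xist, the RNA that coats the inactive X chromosome of females, with 2047 and 2957 fragments over 4 Y-linked genes. Knockout library 2 had 5905 Xist fragments and the wild type libraries 7763 to 17749, with 1 to 7 fragments over those Y-linked genes. Sex is thus partly tied to genotype, with 2 male libraries that are both knockout. RNA of rod photoreceptors was split by genotype. Together 10 rod genes summed to 18254 to 20681 CPM in knockout eyes and to 29403 to 30247 CPM in wild type eyes.

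The muscle genes together took a small and variable part of the RNA, and whether the genotypes overlapped depended on the scale. They accounted for 0.996%, 1.00% and 1.13% of fragments in knockout libraries 1, 2 and 3, against 0.863%, 0.740% and 0.994% in wild type libraries, so that the shares were apart by the small gap between knockout library 1 and wild type library 3. Summed levels were 9851, 9830 and 11066 CPM in knockout eyes and 8753, 7488 and 10309 CPM in wild type eyes. On this scale wild type library 3 lay above knockout libraries 1 and 2, and the ratio of the group means was 1.16. In the authors' FPKM, fragments scaled by transcript length and library size, the groups were apart. Sums were 6008, 5876 and 6537 in knockout eyes and 4684, 5619 and 5504 in wild type eyes, a ratio of 1.17. A single library often set the extremes: knockout library 3 held the highest level for 24 of the 40 genes and wild type library 2 the lowest for 31. In whole-eye RNA, fewer muscle cells and less RNA per cell cannot be told apart.

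**Figure D1:**
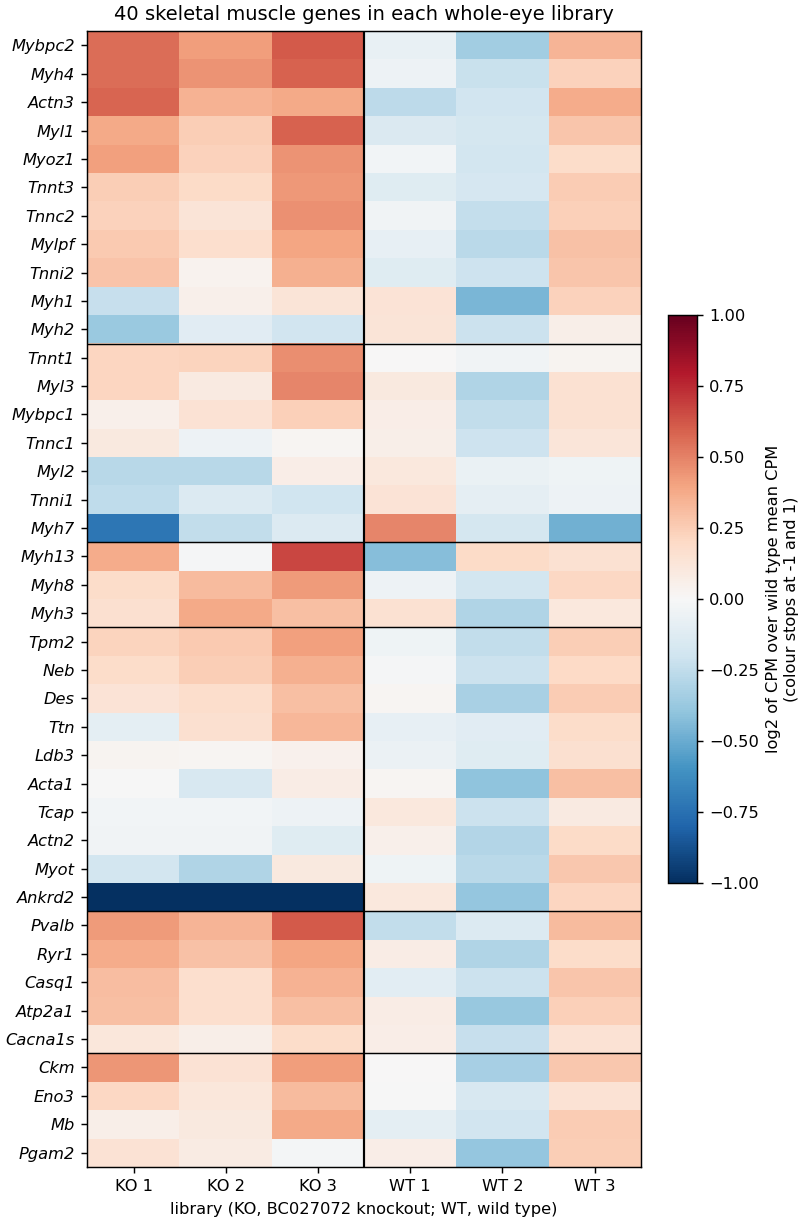
Level of each of the 40 muscle genes (rows, by role and then by fold change) in each library (columns; KO is knockout, WT wild type), as log2 of CPM over the wild type mean. Wild type library 2 is the lowest library for 31 genes, knockout library 3 the highest for 24, and Ankrd2 is low in all 3 knockout libraries.

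Gene by gene, 8 of the 40 rose in knockout eyes and 1 fell, in edgeR's quasi-likelihood test with Benjamini-Hochberg adjustment over 14919 genes at an adjusted p of 0.05. Over all genes tested, 2.89% were called higher and 3.35% lower. The 40 were chosen with earlier results of these data known, so the share called among them is a description and not a test of the set. With library totals in place of TMM scaling the balance turned, with 4.93% of all genes higher and 2.39% lower, and 17 of the 40 higher and 1 lower. The risers were Myh4, Mybpc2, Actn3, Myl1 and Myoz1 of the fast fibre proteins, Tnnt1 of the slow ones, and Pvalb and Ryr1 of the calcium-handling genes, and the gene that fell was Ankrd2. Another 15 had an unadjusted p under 0.05 without passing. How many of all genes or isoforms tested fell under this level was not counted, here or for the similar counts below. The median log2 fold change (knockout over wild type) was 0.25 over the 40 genes and 0.00 over all genes tested, and 30 of the 40 values were positive. Groups did not overlap for 9 genes: 7 had all knockout libraries above all wild type libraries, against 11.6% of all genes tested, and 2 (Ankrd2 and Tnni1) had them below, against 11.7%.

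The number called rests on few libraries. Without wild type library 3, 20 rose and 1 fell (2.72% and 2.66% of all genes). Without wild type library 2, 2 rose and 2 fell (1.81% and 2.48%), without knockout library 3, 2 rose and 1 fell (2.34% and 2.61%), and without knockout library 1, 4 rose and 1 fell (1.83% and 2.82%). With sex added to the fit, none of the 40 was called by edgeR and 4 had an unadjusted p under 0.05. Because both male libraries are knockout, this fit sets knockout library 2 against the 3 wild type libraries, and the fit of those 4 libraries alone, in which the lone knockout library is assumed to vary like the others, is a second view of the same comparison and gave the same counts. With sex in the fit the log2 fold change was 0.45 for Myh4, 0.45 for Mybpc2, 0.38 for Actn3, 0.25 for Myl1, 0.24 for Myoz1, 0.23 for Tnnt1, 0.35 for Pvalb and 0.30 for Ryr1. Over all genes, 0.61% were higher and 0.965% lower with sex in the fit, and 0.619% and 0.961% with knockout library 2 alone. The median log2 fold change of the 40 was 0.14 in both, and limma on FPKM also called none, with 8 at an unadjusted p under 0.05. Myh4, Mybpc2 and Ankrd2 were called in all 6 fits that left out 1 library. DESeq2 on all 6 libraries called 3 of the 40 higher and 1 lower, against 2.19% and 2.88% of all genes: Myh4, Myoz1, Ryr1 and Ankrd2. It did not call Mybpc2 (DESeq2 adjusted p = 0.132), Myl1 (0.241), Actn3 (0.354), Tnnt1 (0.0604) or Pvalb (0.211).

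**Figure D2:**
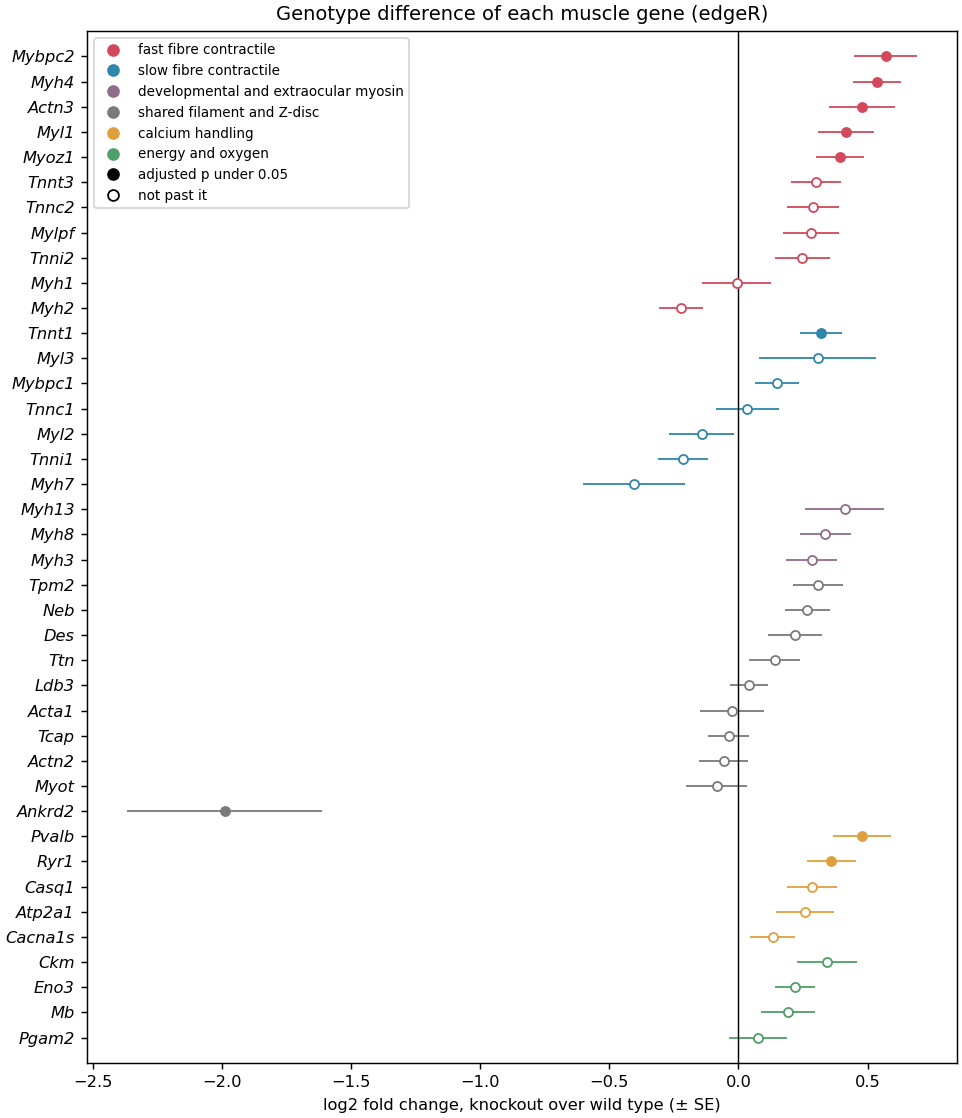
Log2 fold change, knockout over wild type, of each muscle gene (points, coloured by role) with its standard error (bars), from the edgeR fit on 3 knockout and 3 wild type libraries. The filled points are the 9 genes past an adjusted p of 0.05, 8 to the right of 0 and Ankrd2 at -1.99 to the left.

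Among the 11 fast fibre genes, 5 rose, none fell and 6 did not pass, with a median log2 fold change of 0.30. Myh4 encodes the heavy chain of the fastest limb fibres, type IIB, and lies at chr11:67051531-67073948 (mm9) in a cluster of skeletal myosins. It stood at 786, 730.3 and 806 CPM in knockout eyes, against 517, 458 and 628 CPM in wild type eyes. Every knockout library was above every wild type library, with a log2 fold change of 0.54 ± 0.09 (SE) and an edgeR adjusted p of 0.00173.

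Mybpc2, the fast myosin-binding protein C that sits on the thick filament, had 56.2, 51.0 and 58.1 CPM in knockout eyes and 36.2, 30.0 and 48.1 CPM in wild type eyes. Here too the groups were apart, by 0.57 ± 0.12 on the log2 scale (edgeR adjusted p = 0.00897). Myoz1, a Z-disc protein of fast fibres that binds calcineurin, had 48.7, 42.9 and 50.02 CPM in knockout eyes and 35.9, 32.2 and 41.6 CPM in wild type eyes. Its groups did not overlap, but the closest pair, knockout library 2 and wild type library 3, lay near each other, and the log2 fold change was 0.39 ± 0.09 (edgeR adjusted p = 0.0170).

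Actn3 and Myl1 rose with overlapping groups. Actn3, the alpha-actinin of fast fibre Z-discs, measured 70.5, 59.9 and 61.3 CPM in knockout eyes, against 39.2, 41.3 and 60.8 CPM in wild type eyes (log2 fold change 0.48 ± 0.13, edgeR adjusted p = 0.0320). Myl1, the essential light chain of fast myosin, measured 503, 459 and 582 CPM in knockout eyes, against 349, 342 and 467 CPM in wild type eyes (log2 fold change 0.42 ± 0.11, edgeR adjusted p = 0.0285). In both, wild type library 3 reached into the knockout range.

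The fast troponins and the regulatory light chain gave smaller values that did not pass. Log2 fold changes were 0.30 ± 0.10 for Tnnt3 (troponin T, which ties the complex to tropomyosin), 0.29 ± 0.10 for Tnnc2 (troponin C, the calcium sensor), 0.28 ± 0.11 for Mylpf (the fast regulatory light chain) and 0.25 ± 0.11 for Tnni2 (troponin I, the inhibitor), with edgeR adjusted p of 0.0882 to 0.209. All 4 overlapped between groups.

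The other adult fast heavy chains did not share the pattern of Myh4. Myh2, the heavy chain of type IIA fibres, had 175, 208 and 197 CPM in knockout eyes and 247, 194 and 235 CPM in wild type eyes. Its log2 fold change was -0.22 ± 0.09 (edgeR adjusted p = 0.156), and without wild type library 2 it became the second gene called lower. Myh1, of type IIX fibres, had 365, 443 and 469 CPM in knockout eyes and 471, 312 and 501 CPM in wild type eyes, a log2 fold change of -0.01 ± 0.13 whose sign turned in several other settings.

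Myosin heavy chains can be compared with one another per length, in the authors' FPKM (fragments scaled by transcript length and library size). Of the summed FPKM of the 7 heavy chains, Myh4 made up 41.7% ± 2.62 in knockout eyes and 33.8% ± 2.34 in wild type eyes (SD, n = 3 each). Myh2 made up 10.3% ± 0.673 in knockout eyes and 14.7% ± 1.69 in wild type eyes, and neither share overlapped between the genotypes. The ratio of Myh4 to Myh2 was 4.34, 3.56 and 4.23 in knockout eyes, against 2.01, 2.19 and 2.76 in wild type eyes; taken from fragments it was 4.51, 3.51 and 4.09, against 2.09, 2.36 and 2.68. Every knockout library was above every wild type library on both scales. No test was run on the ratio, which sets the adult fast chain with the highest log2 fold change against the one with the lowest. It adds no evidence apart from the levels of Myh4 and Myh2 given above. The male libraries, knockout 1 and 3, had the highest ratios, and knockout library 2 was at 3.56 in FPKM. What part sex had in the ratio was not tested. Myh4 over Myh1, also apart in FPKM, was 2.19, 1.71 and 1.77 in knockout eyes, against 1.12, 1.51 and 1.27 in wild type eyes. Ratios of fast to slow troponins overlapped. Tnnt3 over Tnnt1 was 7.84, 6.23 and 7.54 in knockout eyes, against 7.36, 3.81 and 8.88 in wild type eyes. Tnni2 over Tnni1 was 18.0, 10.6 and 19.3 in knockout eyes, against 9.27, 8.97 and 15.5 in wild type eyes. Myh1 (22.2% ± 1.64 in knockout eyes, 26.2% ± 2.73 in wild type eyes) and Myh3 (18.9% ± 1.40 in knockout eyes, 18.1% ± 0.902 in wild type eyes) made up most of the rest, and the extraocular chain Myh13 was 3.71% ± 0.943 in knockout eyes and 3.40% ± 0.903 in wild type eyes.

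**Figure D3:**
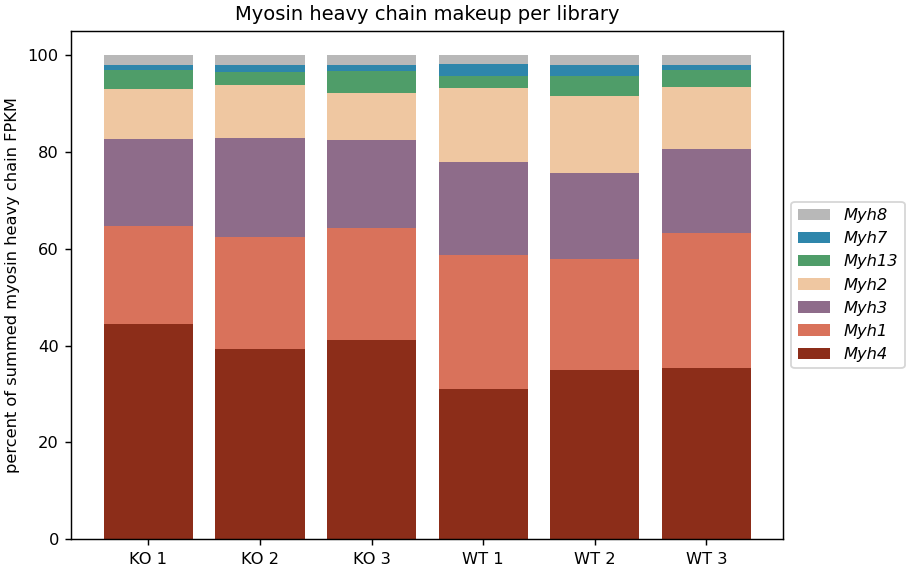
Share of each of 7 myosin heavy chains in their summed FPKM, for each knockout (KO) and wild type (WT) library. Myh4 takes 39.4% to 44.5% in the knockout libraries and 31.1% to 35.3% in the wild type libraries, and Myh2 9.72% to 11.1% in the knockout libraries and 12.8% to 16.0% in the wild type libraries.

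Some of these heavy chains are close copies, and for them the level rests on the authors' estimate of which copy a fragment came from. In GENCODE M21 coding sequences, 19.5% of the 50-base windows of Myh4 occur unchanged in another of the 7 chains. The share was 27.9% for Myh1, 28.1% for Myh2 and 22.7% for Myh8, but 8.81% for Myh13, 4.99% for Myh3 and 0.226% for Myh7. The longest stretch that Myh4 shares with Myh1 spans 161 bases, coding positions 3241 to 3401 of Myh4, and is shown because a read inside it cannot be placed in either gene.

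Myh4 and Myh1: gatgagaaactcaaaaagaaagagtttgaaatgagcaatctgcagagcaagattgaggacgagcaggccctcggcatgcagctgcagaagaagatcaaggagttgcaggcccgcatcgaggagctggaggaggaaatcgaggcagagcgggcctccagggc

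Promoter sequences of the 3 adult fast chains are shown because these neighbours on chromosome 11 had different genotype differences. Each is the 250 bases before the RefSeq start (GRCm38.p6, plus strand): chr11:67237562-67237811 for Myh4, chr11:67199852-67200101 for Myh1 and chr11:67170777-67171026 for Myh2. Capitals mark matches to the E-box CANNTG (bound by MyoD-type factors), the MEF2 motif, the CArG box (bound by serum response factor) or TATAAA, searched on both strands; the MEF2 matches of Myh4 and Myh1 overlap a reverse-strand TATAAA.
Myh4: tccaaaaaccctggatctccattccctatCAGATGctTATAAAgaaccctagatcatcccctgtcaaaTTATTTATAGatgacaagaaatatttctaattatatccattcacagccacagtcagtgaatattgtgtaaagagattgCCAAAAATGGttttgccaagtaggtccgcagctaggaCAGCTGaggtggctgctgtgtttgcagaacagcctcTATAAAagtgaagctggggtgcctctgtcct
Myh1: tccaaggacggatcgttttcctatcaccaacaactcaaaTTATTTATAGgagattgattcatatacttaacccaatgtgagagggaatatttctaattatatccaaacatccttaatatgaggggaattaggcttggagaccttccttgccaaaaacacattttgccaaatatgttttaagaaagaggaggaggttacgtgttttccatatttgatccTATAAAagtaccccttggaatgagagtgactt
Myh2: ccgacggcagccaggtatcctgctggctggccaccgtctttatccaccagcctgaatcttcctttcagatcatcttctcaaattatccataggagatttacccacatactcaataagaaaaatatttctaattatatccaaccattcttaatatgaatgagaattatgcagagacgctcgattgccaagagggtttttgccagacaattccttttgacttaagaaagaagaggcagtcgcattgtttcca

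The Myh4 window holds 2 E-boxes, 1 MEF2 match and 1 CArG box, the Myh1 window 1 MEF2 match and neither of the others, and the Myh2 window none of the 4 motifs. Of 32851 promoter windows of this length, 66.2% hold an E-box, 2.92% a MEF2 match, 1.47% a CArG box and 12.4% TATAAA. Promoters were found for 33 of the 40 genes. Counting only the first window listed for each gene, 28 have an E-box, 6 a MEF2 match, 4 a CArG box and 8 TATAAA. A match is a run of letters and not a measured binding site.

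Of the 7 slow fibre genes, 1 rose, none fell and 6 did not pass, with a median log2 fold change of 0.03. The riser was Tnnt1, the slow troponin T, at 38.8, 38.9 and 46.1 CPM in knockout eyes and 33.3, 32.6 and 34.0 CPM in wild type eyes. Its groups did not overlap, with a log2 fold change of 0.32 ± 0.08 (edgeR adjusted p = 0.0281). Tnni1, the slow troponin I, ran the other way, at 18.6, 20.2 and 19.3 CPM in knockout eyes and 24.3, 20.8 and 21.4 CPM in wild type eyes, without passing (log2 fold change -0.21 ± 0.10, edgeR adjusted p = 0.247). Myh7, the slow and cardiac beta heavy chain, varied widely within wild type; it was at 14.9, 20.7 and 22.3 CPM in knockout eyes and at 34.3, 21.6 and 17.6 CPM in wild type eyes (log2 fold change -0.40 ± 0.20). Mybpc1, Myl3, Tnnc1 and Myl2 had log2 fold changes of 0.15, 0.31, 0.03 and -0.14, all with overlapping groups. Slow genes had lower sums, of 251 to 290 CPM in knockout eyes and 224 to 274 CPM in wild type eyes. The fast genes summed to 3029 to 3467 CPM in knockout eyes and 2212 to 3106 CPM in wild type eyes. These sums are over 7 slow and 11 fast genes and are not scaled by transcript length, so the comparison is rough.

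**Figure D4:**
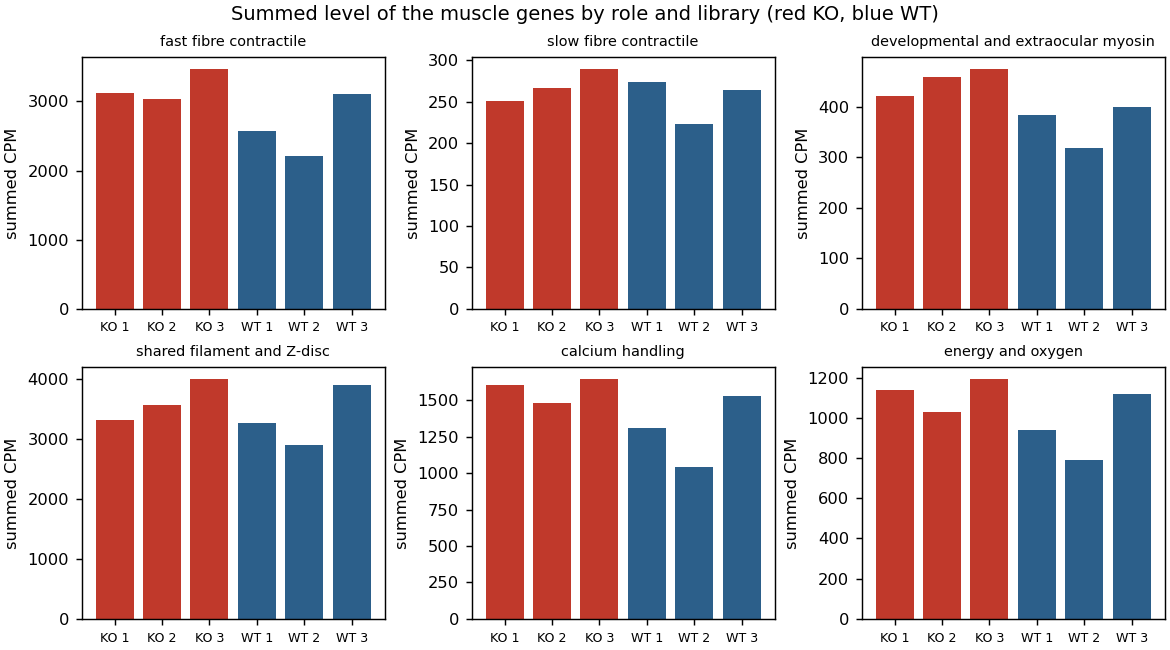
Summed CPM of the muscle genes of each role (panels) in each knockout (KO, red) and wild type (WT, blue) library, on axes that start at 0. Wild type library 2 is the lowest bar in every panel, and the vertical scale differs between panels.

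Of the developmental and extraocular heavy chains, none of 3 passed in edgeR or DESeq2, and all 3 had an unadjusted edgeR p under 0.05. Myh3, the embryonic chain, had 315, 366 and 346 CPM in knockout eyes and 312, 228 and 302 CPM in wild type eyes; the groups were apart, by only 314.6 against 312.3 CPM between knockout library 1 and wild type library 1. Its log2 fold change was 0.28 ± 0.10 (edgeR adjusted p = 0.109). Myh8, the perinatal chain, had 35.1, 38.4 and 41.5 CPM in knockout eyes and 29.8, 27.1 and 35.6 CPM in wild type eyes (log2 fold change 0.34 ± 0.10, edgeR adjusted p = 0.0574). Myh13 gave 0.41 ± 0.15 (edgeR adjusted p = 0.142), and 0.01 with sex in the fit.

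Calcium-handling genes all had positive log2 fold changes, with a median of 0.28, and 2 of 5 rose. Pvalb, the soluble calcium buffer that speeds relaxation of fast fibres and that some retinal interneurons also make, had 185, 175 and 211 CPM in knockout eyes and 117, 126 and 172 CPM in wild type eyes (log2 fold change 0.48 ± 0.11, edgeR adjusted p = 0.0162). Ryr1, the calcium release channel, had 135, 128 and 137 CPM in knockout eyes and 110, 84.6 and 119 CPM in wild type eyes (0.36 ± 0.09, edgeR adjusted p = 0.0290). Neither gene overlapped between genotypes. Casq1, which stores calcium in the reticulum, Atp2a1, the pump that returns it there, and Cacna1s, the voltage sensor, had log2 fold changes of 0.28, 0.26 and 0.13 and did not pass.

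None of the 4 energy and oxygen genes passed in edgeR or DESeq2, and 2 had an unadjusted edgeR p under 0.05. Ckm (muscle creatine kinase), Eno3 (muscle enolase), Mb (myoglobin) and Pgam2 (muscle phosphoglycerate mutase) had log2 fold changes of 0.34, 0.22, 0.19 and 0.08, with edgeR adjusted p of 0.103 to 0.787. Their ranges overlapped in all 4 cases.

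The 10 shared filament and Z-disc genes had a median log2 fold change of 0.01, with 5 positive and 5 negative values, and 1 gene that fell. Ttn, the giant spring of the sarcomere and the most abundant by CPM, had 1607, 1916 and 2157 CPM in knockout eyes and 1622, 1585 and 1946 CPM in wild type eyes. Acta1, skeletal actin, had 762, 685 and 802 CPM in knockout eyes and 774, 577 and 938 CPM in wild type eyes. Neither was separated by genotype, with log2 fold changes of 0.14 ± 0.10 and -0.02 ± 0.12. Tpm2, Neb and Des, which encode tropomyosin beta, nebulin and desmin, were at 0.31, 0.27 and 0.22, and Ldb3, Tcap, Actn2 and Myot, all Z-disc proteins, were between -0.08 and 0.04; none of the 7 passed.

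Ankrd2 fell furthest of the 40. It encodes a muscle ankyrin repeat protein found at the sarcomere's I-band and in the nucleus, known to respond to stretch. Fragments numbered 2, 3 and 8 in knockout libraries, against 49, 23 and 20 in wild type libraries, or 0.234, 0.517 and 0.755 CPM against 2.28, 1.62 and 2.46 CPM. All knockout libraries were below all wild type libraries, with a log2 fold change of -1.99 ± 0.38 (edgeR adjusted p = 0.00355). Pooled over libraries, 13 knockout and 92 wild type fragments gave a ratio of shares of 0.257, with an exact 95% interval of 0.132 to 0.462 that covers counting error only. With sex in the fit the log2 fold change was -2.00 and the adjusted p 0.261. Its promoter window (chr19:42035777-42036026, GRCm38.p6, plus strand) is shown for comparison with the myosins and holds 3 E-boxes and a TATAAA, in capitals.
Ankrd2: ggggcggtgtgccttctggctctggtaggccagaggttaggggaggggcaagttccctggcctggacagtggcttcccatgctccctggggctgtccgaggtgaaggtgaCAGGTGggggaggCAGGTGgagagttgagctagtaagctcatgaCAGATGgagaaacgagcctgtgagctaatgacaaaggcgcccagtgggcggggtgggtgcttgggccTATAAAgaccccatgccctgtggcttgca

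Related sarcomere genes outside the 40 were followed through a list of 37, of which 35 were tested: 2 rose and 2 fell, with a median log2 fold change of 0.15. Csrp3, the muscle LIM protein of the Z-disc, had 5.50, 7.23 and 6.23 CPM in knockout eyes and 14.1, 10.6 and 16.5 CPM in wild type eyes (log2 fold change -1.11 ± 0.17, edgeR adjusted p = 0.000628). Ankrd1, of the same ankyrin repeat family as Ankrd2 and named after its values were seen, had 4, 4 and 13 fragments in knockout libraries and 48, 27 and 14 in wild type libraries (-1.25 ± 0.33, edgeR adjusted p = 0.0342; not called by DESeq2, adjusted p = 0.157). Both were lower in every knockout library by CPM. Cmya5, a desmin-associated protein, rose by 0.39 ± 0.08 (edgeR adjusted p = 0.00543). None of these 3 passed with sex in the fit (adjusted p 0.187 to 0.392).

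**Figure D5:**
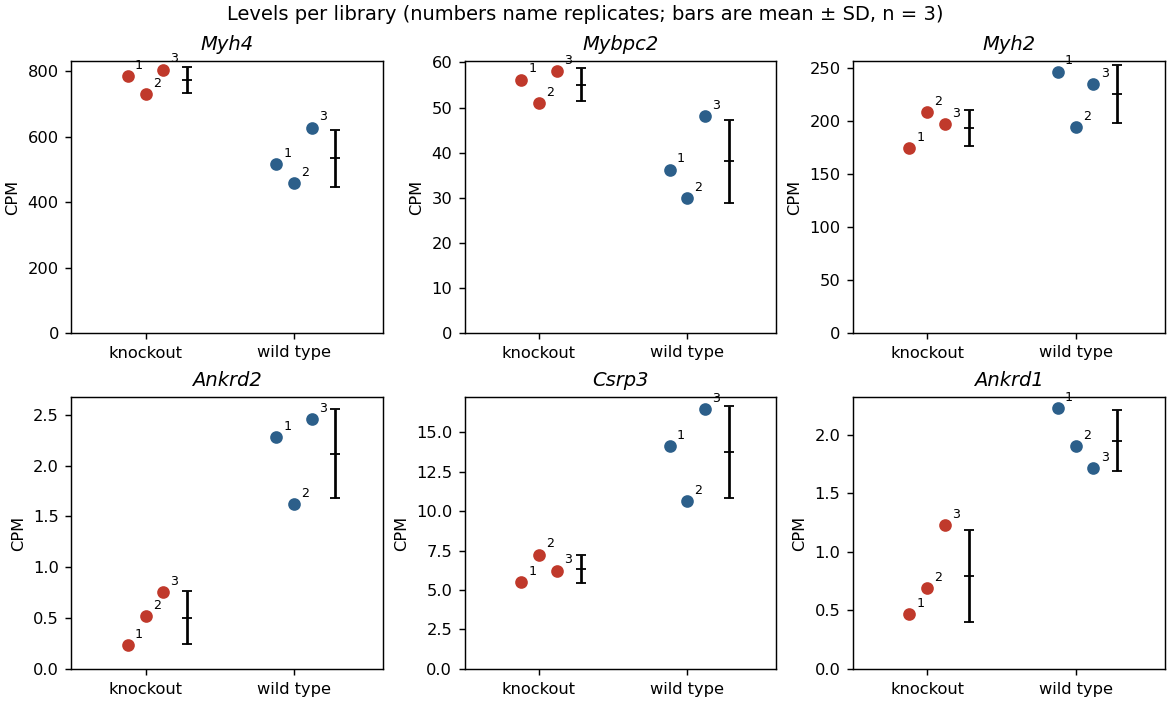
CPM of 6 muscle genes in each knockout (red) and wild type (blue) library, with the mean ± SD (bars, n = 3). Myh4 and Mybpc2 are higher and Ankrd2, Csrp3 and Ankrd1 lower in every knockout library, while Myh2 overlaps between the groups.

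Further muscle lists differed in how many genes were called. Of 18 triad and calcium-release genes none was called by edgeR or DESeq2 and 5 had an unadjusted edgeR p under 0.05, with a median log2 fold change of 0.10; Atp2a2, the slow and non-muscle calcium pump, had the highest level and a log2 fold change of -0.11 ± 0.06. Of 17 muscle metabolism genes 12 had an unadjusted edgeR p under 0.05, and 3 rose and 1 fell: Pygm, muscle glycogen phosphorylase, by 0.33 ± 0.07, Cox7a1, a muscle subunit of cytochrome oxidase, by 0.51 ± 0.11, Pdk4, which restrains pyruvate dehydrogenase and was named after its values were seen, by 0.60 ± 0.14, and Hk2, hexokinase 2, at -0.70 ± 0.06. Hk2 had 134 to 138 CPM in knockout eyes and 212 to 233 CPM in wild type eyes, and photoreceptors also make it. With sex in the fit Hk2 was still called (edgeR adjusted p = 0.00152), and Pygm, Cox7a1 and Pdk4 were not (0.256, 0.448 and 0.369). Dmd (dystrophin, -0.42 ± 0.07) was the only call among 18 tested membrane and junction genes, and Mef2c (-0.32 ± 0.06) the only one among 14 tested myogenic and satellite cell genes; the retina expresses both, and neither was called with sex in the fit (edgeR adjusted p = 0.0938 and 0.121). Myod1 and Myog were present at 10 to 19 and 14 to 34 fragments in knockout libraries and 11 to 35 and 20 to 53 in wild type libraries.

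Lists for other tissues differed from one another. Of 4 heart-type genes that could be tested, Tnnt2 rose (14 to 59 fragments in knockout libraries, 7 to 51 in wild type libraries; log2 fold change 1.19 ± 0.31, edgeR adjusted p = 0.0305), and none of the others was called. Its log2 fold change was 0.41 with sex in the fit (adjusted p 0.849), and developing skeletal muscle also makes this troponin. Of 13 tested smooth muscle genes, Mylk, the myosin light chain kinase, fell (-0.34 ± 0.06), but not with sex in the fit (edgeR adjusted p = 0.184). None of 10 tendon and fascia genes, 8 tested fat genes, 7 tested Schwann cell genes or 10 lens genes was called by edgeR, while 5, 1, 3 and 3 of them, in that order, had an unadjusted p under 0.05 and DESeq2 called 1 lens gene. The tendon genes were high in wild type library 1 alone: Col1a1, the main collagen of tendon and sclera, was at 1654 to 2363 CPM in knockout eyes and at 5068, 1768 and 1756 CPM in wild type eyes. All 10 rod genes were called, 1 higher and 9 lower, among them Nrl, a transcription factor of rods, at 434 to 455 CPM in knockout eyes and 884 to 930.3 CPM in wild type eyes. What part the rods, the sex of the libraries or the amount of attached muscle had in the muscle gene differences was not tested.

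Isoforms added little. The 40 genes have 60 annotated transcripts, 8 genes having more than 1, and 55 were among the 16546 isoforms tested. No isoform was called by edgeR, against 0.55% of all isoforms higher and 1.02% lower, while 17 had an unadjusted p under 0.05. The smallest adjusted p values, 0.119 for Ankrd2 and 0.120 for Myh4, belong to genes with a single transcript that passed in the gene fit. Tnnt3, whose fast troponin T is spliced in many forms, had its transcript NM_011620 at 74.5, 27.4 and 43.4 FPKM in knockout eyes and at 16.8, 17.9 and 17.5 FPKM in wild type eyes (log2 fold change 1.21 ± 0.28, edgeR adjusted p = 0.135). The groups were apart, but the transcript did not pass. Myl1 used its 2 transcripts in steady proportion, with NM_001113387 at 85.6% to 87.0% of its FPKM in knockout eyes and 85.3% to 86.9% in wild type eyes.

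In the authors' deposited table of their own test, 14 of the 40 genes had a q-value under 0.05. How many of all genes in it had such a q-value was not counted. Myh4, Mybpc2, Actn3, Tnnt3, Myoz1, Pvalb and Myh13 shared the smallest, 0.00162. In the edgeR fit Ankrd2 (-1.99) and Myh7 (-0.40) had negative log2 fold changes, and the rest of the 14 had positive ones. Of the 14 in the authors' deposited table, Tnnt3, Myh13, Mylpf, Myh3, Myh7 and Myh8 did not pass in the edgeR fit. Tnnt1, called by edgeR, had a q-value of 0.0531 in the authors' deposited table.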

How the data were processed

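Whole-eye RNA was sequenced from 3 BC027072 knockout and 3 wild type libraries. The submitters' processing notes list Cuffdiff 2.2.1, Cufflinks 2.2.1, TopHat2 2.0.12 and build mm9. The authors made estimated counts of fragments for every gene and isoform, deposited unscaled per the file headers; 98.5% of the gene values were whole within 1e-06, and all were rounded. The authors also deposited FPKM, which carry their own scaling, and a q-value per gene from their own comparison. The replicate table counts libraries from 0 and the titles from 1. That they share an order is assumed, so a library number is only a name and tests rest on the group. Left out were 7 genes and 12 isoforms whose estimate had failed.

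Rounded counts were fitted with edgeR 4.0.16 (R 4.3.3), with TMM scaling, filterByExpr (minimum count 10, total 15) and the quasi-likelihood F test over all 6 libraries; isoforms needed a mean FPKM of at least 1. P-values were Benjamini-Hochberg adjusted over all features tested. The standard error is the size of the log2 fold change over the square root of F. Alternatives used DESeq2 1.42.0, limma 3.58.1 on log2(FPKM + 1) or log2(FPKM + 0.1), other scaling and filters, sex, a replicate block, and leaving out each library. The fit was tested on simulated data. Sex was read from Xist and Y-linked fragments. Named genes are the 40, BC027072 and, per other list, up to 3 called genes with the smallest p, or else the most abundant one; some called genes of these lists are not reported here. Of 184 genes in those lists, 181 were in the table. The members and lists were chosen with earlier results of these data known. Promoters are RefSeq GRCm38.p6 and coding sequences GENCODE M21; gene positions are mm9, counted from 1.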

Additional observations from a re-analysis of the deposited data

How the results depend on the processing

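Each of the 9 called genes kept its sign in all 15 alternatives. Over all genes, 431 were higher and 500 lower in knockout eyes; these counts were 736 higher and 357 lower with library totals only, 12 higher and 4 lower with limma on FPKM at either pseudocount, 91 and 144 with sex as a covariate, 96 and 149 in libraries with Xist only, and 271 to 425 and 315 to 460 when 1 library was left out. Of the 40 muscle genes, 8 were higher and 1 lower. Higher genes numbered 3 with the DESeq2 test, where 326 of all genes tested were higher, and 17 with library totals only. With no filter 16 of the 40 were higher, where 525 of all genes tested were higher and 591 lower. When 1 library was left out, higher genes of the 40 numbered 2 to 20 and lower genes 1 to 2. No muscle gene was called higher or lower (0 and 0) with limma at either pseudocount, with sex as a covariate or in libraries with Xist only; 8 of the 40 had an unadjusted p under 0.05 with limma at either pseudocount. Their median log2 fold change was 0.15 to 0.35 when 1 library was left out. Library totals in place of TMM moved the median of the 40 to 0.31. The replicate block called 19 of the 40 higher and 1 lower, and 558 of all genes tested higher and 611 lower. Same-numbered libraries deviated with correlations of 0.132, 0.0657 and -0.0489, and differently numbered ones with -0.165 to 0.0943. The order of the libraries is assumed, so these correlations cannot settle whether the numbers pair them. No isoform of the 40 was called in any alternative.

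Some values changed sign, and none of them was called in any setting; all lay near 0 with all libraries except Col1a1, at -0.56, which turned only without wild type library 1. Myh1 was 0.047 in libraries with Xist only, 0.052 with library totals, 0.0436 and 0.043 with limma at the lower and higher pseudocount, 0.011 with the replicate block and 0.0496 with sex. Tnnc1 was -0.0444 in libraries with Xist only and -0.0424 with sex. With library totals Acta1 was 0.0349 and Tcap 0.0194. With limma at the lower and higher pseudocount Tcap was 0.0309 and 0.0306, Ldb3 -0.129 and -0.126, and Pmp22 -0.0256 and -0.0253. Over the fits without 1 library, the log2 fold change ran from -0.19 to 0.12 for Myh1, -0.0584 to 0.0833 for Tnnc1, -0.19 to 0.15 for Acta1, -0.183 to 0.0404 for Actn2, -0.216 to 0.0458 for Myot, -0.135 to 0.0291 for Tcap, -0.0135 to 0.12 for Ldb3, -0.0843 to 0.207 for Pgam2, -0.0118 to 0.0747 for Car3 and -0.817 to 0.137 for Col1a1. The cause was not tested.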
